A study of Mus musculus with 9 samples.

Results

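The 30 genes described here are a list of B cell and follicle genes of the mouse, from the subunits of the B cell antigen receptor to the receptors that bring B cells into follicles and keep them alive. They were picked by gene symbol, and all 30 were found among the 55359 genes of the count table. All 30 also passed the filter on low counts, which left 17123 genes for testing. The genes were read in poly(A) RNA sequencing libraries of 9 omenta, sheets of fat hung from the stomach that catch cells and particles from the abdominal cavity. Every mouse was C57BL/6, was 7 to 10 weeks old and had received 500000 B16-OVA cells, a mouse melanoma line that expresses ovalbumin, into the peritoneal cavity on day 0. In the IP group (3 mice, numbered 2, 3 and 4), ovalbumin-specific OT-I T cells electroporated with IL-12 mRNA were given into the peritoneal cavity on day 6. In the IV group (3 mice, numbered 1, 2 and 4) the same kind of cells went into a vein on that day, and the PBS group (3 mice, numbered 1, 2 and 3) got saline. Omenta were taken 18 h after the T cell injection. T cells lacking the mRNA were not among the groups, and no omentum came from a mouse without tumour cells, so all 3 groups share the tumour and both treated groups share the mRNA.

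B cells recognise antigen with a membrane immunoglobulin that signals through the Cd79a and Cd79b chains, by way of kinases such as Blk and Btk and adaptors such as Blnk. Receptors such as Cr2 lower the threshold of this signal and others such as Cd22 raise it. The B cell programme is set by transcription factors that include Ebf1 and Pax5. In the omentum, B cells gather in milky spots, small immune clusters in the fat, where the chemokine Cxcl13 draws cells that carry its receptor Cxcr5. Milky spots hold both B-1 cells and follicular B cells. Follicular B cells carry the low-affinity IgE receptor CD23, made from Fcer2a, the complement receptor made from Cr2, and IgD, while B-1 cells carry little CD23. A library of whole tissue gives the RNA of all its cells at once, so fewer B cells and less RNA per B cell cannot be told apart.

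Library totals ran from 7379798 counts in IV 2 to 44626843 in PBS 3. Fat and mesothelial markers of the omentum were detected in every library, with a summed level of 112 to 200 CPM (counts scaled to a common library total) in IP, 244 to 263 in IV and 134 to 285 in PBS, and none of the 8 genes at 0. The 8 pancreatic acinar genes stood far apart between libraries. Their summed level was 170 and 221 CPM in IP 2 and IP 3 and 15600 in IP 4, then 20600, 3690 and 9.43 CPM in IV 1, IV 2 and IV 4, against 13.1 to 20.2 CPM in PBS. IV 4 was also the IV library closest to PBS over all genes, with a Pearson correlation of log2 CPM of 0.9815 with PBS 3, against 0.9484 with IV 1 and 0.9531 with IV 2. Below, CPM are scaled by TMM, a method that corrects totals for a few dominant genes. A gene is called where its adjusted p from edgeR's quasi-likelihood test, adjusted by Benjamini and Hochberg over all genes tested, is under 0.05.

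After IV treatment, nearly the whole list was higher than in PBS omenta. In IV against PBS, 26 of the 30 genes rose and 0 fell, beside 10.4% of all genes tested that rose and 5.66% that fell (16.1% either way). At an unadjusted p under 0.05 edgeR called 28 higher and 0 lower. After adjustment DESeq2 called 27 and 0, beside 12.9% and 10.3% of all genes. Limma on the deposited log2 CPM called 20 and 0, beside 8.2% and 6.84%. The 4 genes not called were Cd72, Ebf1, Cd55 and Vpreb3. The median log2 fold change over the 30 genes was 1.8, and it was 0.04 over all genes tested. In 24 of the 30 genes all IV libraries were above all PBS libraries, and in 0 were all below, beside 16.5% and 13.6% of all genes tested.

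After IP treatment, most of the list was not called against PBS. In IP against PBS, 3 of the 30 genes rose (Btk, Tnfrsf13b and Cd180), 2 fell (Cr2 and Fcer2a) and 25 were not called, beside 18.7% of all genes tested that rose and 14.2% that fell (32.9% either way). The median log2 fold change over the list was -0.20, and it was 0.02 over all genes tested. The groups did not overlap in 13 genes, of which 7 were higher in all IP libraries (Btk, Blnk, Pou2af1, Fcrl5, Tnfrsf13b, Cd180 and Cd83) and 6 were lower (Ms4a1, Cr2, Bank1, Fcer2a, Fcmr and Cd55). The shares among all genes tested were 28.4% higher and 24.8% lower, so the non-overlap of these 13 is near the background.

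Set against each other, the routes differed in 18 of the 30 genes, all lower in IP than in IV omenta, with 0 higher by edgeR, also at an unadjusted p under 0.05, and 0 higher by DESeq2 or limma. Of all genes tested, 4.47% were lower and 5.93% higher (10.4% either way) by edgeR, with 8.81% higher by DESeq2 and 3.89% by limma. The median log2 fold change of IP against IV was -1.79 over the list and -0.02 over all genes tested. In 22 genes every IP library was below every IV library, and in Cd180 every one was above, beside 13.5% and 17.9% of all genes tested. Both treated groups are compared with the same PBS libraries, so the comparisons with PBS are not independent of each other.

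By their 3 calls, 15 genes were higher in IV than in PBS, lower in IP than in IV, and not called in IP against PBS. Cr2 and Fcer2a were the pair called in opposite directions, lower in IP and higher in IV than in PBS. Btk, Tnfrsf13b and Cd180 rose in both treated groups, with IP against IV not called.

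**Figure D1:**
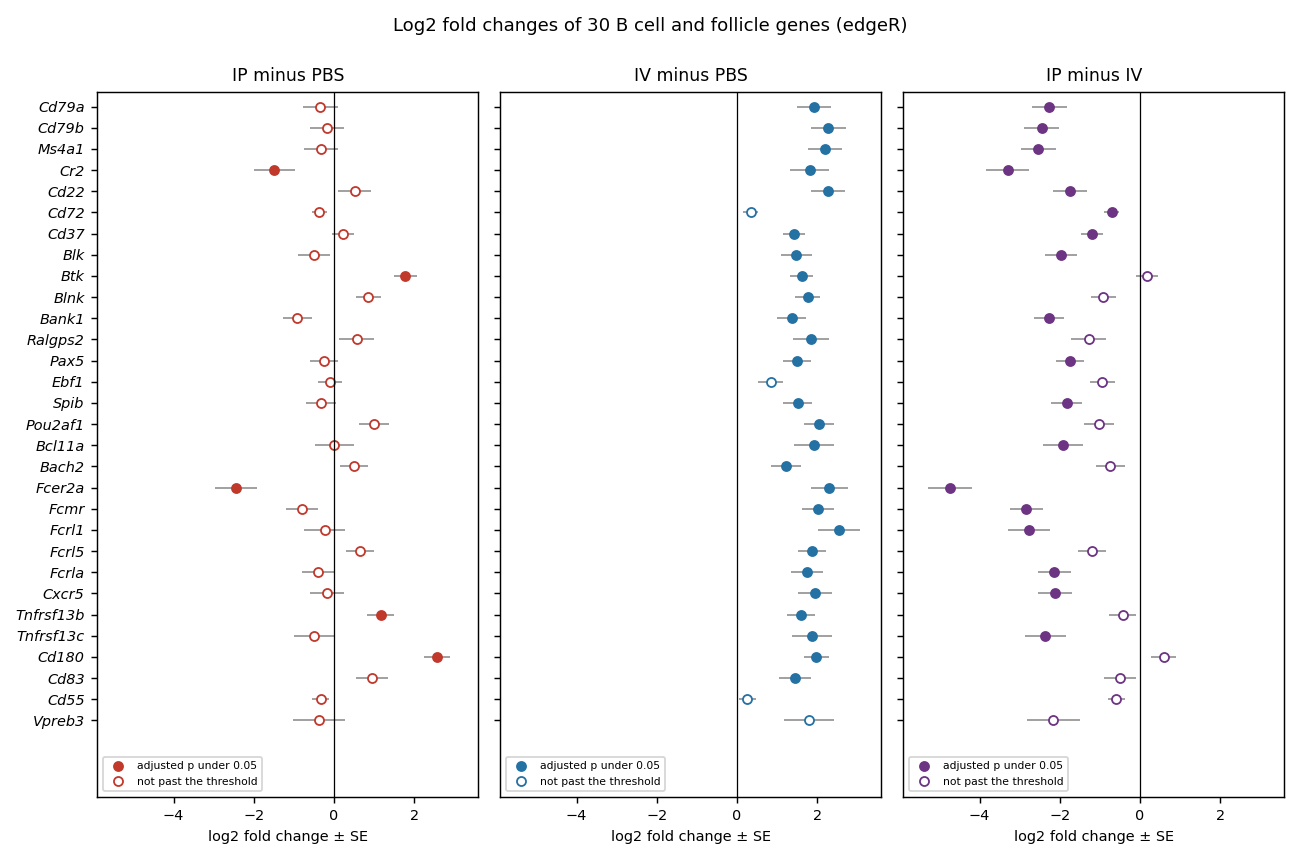
Log2 fold changes of the 30 genes (points) with their standard errors (grey bars) for IP minus PBS, IV minus PBS and IP minus IV; filled points have an adjusted p under 0.05. In the IV minus PBS panel 26 points are filled and all 30 lie to the right of 0, while in the IP minus IV panel 18 filled points lie to the left.

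The receptor complex followed the common pattern. Cd79a, a signalling chain of the antigen receptor, had 13.8, 7.83 and 14.1 CPM in IP 2, IP 3 and IP 4, and 29.3, 106 and 38.4 CPM in IV 1, IV 2 and IV 4, against 12.3, 18.0 and 15.1 CPM in PBS 1, PBS 2 and PBS 3. All IV libraries lay above the rest, IV 2 by far the highest, while IP and PBS overlapped. The log2 fold change of IV over PBS was 1.92 ± 0.43 (standard error, adjusted p = 0.0160 by edgeR), that of IP over IV was -2.26 ± 0.44 (adjusted p = 0.0103), and that of IP over PBS was -0.34 ± 0.43 (adjusted p = 0.590).

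Ms4a1, which encodes the B cell surface protein CD20, had 10.0, 6.27 and 8.43 CPM in IP, and 19.3, 85.5 and 40.1 CPM in IV, against 10.2, 10.8 and 10.2 CPM in PBS, libraries in the order given above. The IP libraries were just below the PBS libraries without overlap, and the IV libraries were all above both. IV was above PBS by a log2 fold change of 2.20 ± 0.43 (edgeR adjusted p = 0.00826) and IP was below IV by -2.53 ± 0.43 (adjusted p = 0.00525), while IP against PBS was not called (-0.33 ± 0.42, adjusted p = 0.590). Cd79b, the second signalling chain, was called in the same comparisons, with log2 fold changes of 2.28 ± 0.43 for IV over PBS and -2.45 ± 0.44 for IP over IV.

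The receptors that tune this signal split. Cr2, the complement receptor that lowers the threshold of the antigen receptor, had 0.757, 0.296 and 0.876 CPM in IP, and 2.73, 10.5 and 6.62 CPM in IV, against 1.78, 1.46 and 2.26 CPM in PBS. The 3 groups did not overlap, IP lowest and IV highest. The log2 fold change was -1.49 ± 0.51 for IP over PBS (edgeR adjusted p = 0.0458), 1.81 ± 0.48 for IV over PBS (adjusted p = 0.0293) and -3.30 ± 0.53 for IP over IV (adjusted p = 0.00367). The fall in IP rests on 7 to 26 counts per IP library, and its call was lost on leaving out any 1 of the 6 IP and PBS libraries (adjusted p up to 0.143) and with every library thinned to the total of IV 2 (0.246). The rise in IV was lost without PBS 1, PBS 2 or IV 2, with only the 2 groups compared, with the mouse number as a block, by limma on the deposited log2 CPM and without IP 4, IV 1 and IV 2 (adjusted p up to 0.109).

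Cd22, an inhibitory receptor that binds sialic acid, had 10.3, 9.40 and 13.2 CPM in IP, and 15.1, 64.0 and 33.0 CPM in IV, against 6.17, 7.14 and 9.55 CPM in PBS. IV was above both other groups in every library, and IP overlapped PBS. It rose in IV (2.27 ± 0.42, edgeR adjusted p = 0.00712) and was lower in IP than in IV (-1.75 ± 0.42, adjusted p = 0.0244), and IP against PBS was not called (0.52 ± 0.41, adjusted p = 0.372). The tetraspanin Cd37 rose in IV by 1.42 ± 0.28. Cd72, an inhibitory co-receptor, was the exception of this set, with 23.1, 20.1 and 28.5 CPM in IP, and 31.3, 49.4 and 37.9 CPM in IV, against 27.5, 35.5 and 29.9 CPM in PBS. Its IV and PBS libraries overlapped, and its log2 fold change of IV over PBS was 0.34 ± 0.19 (edgeR adjusted p = 0.255).

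In the Fc receptor family, Fcer2a had the lowest log2 fold change of the 30 genes both in IP against PBS and in IP against IV. It encodes CD23 of follicular B cells, and had 0.165, 0.339 and 0.371 CPM in IP, and 3.49, 14.0 and 6.69 CPM in IV, against 1.5, 1.54 and 1.73 CPM in PBS. Every IP library was below every PBS library and every IV library above. As counts, Fcer2a had 5, 8 and 11 in IP, and 96, 105 and 293 in IV, against 55, 40 and 85 in PBS. The log2 fold change was -2.44 ± 0.53 for IP over PBS (edgeR adjusted p = 0.00502), 2.30 ± 0.46 for IV over PBS (adjusted p = 0.00922) and -4.74 ± 0.54 for IP over IV (adjusted p = 0.000824). With every library thinned at random to the total of IV 2, the adjusted p of IP against PBS was 0.0789, and it was under 0.05 in the other 17 alternatives tried.

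The other members of that family rose in IV. Fcmr, the receptor for the Fc part of IgM, had 4.05, 2.96 and 3.61 CPM in IP, and 12.7, 45.9 and 18.9 CPM in IV, against 4.92, 6.87 and 6.81 CPM in PBS. The groups did not overlap, but IP against PBS was not called (-0.80 ± 0.40, edgeR adjusted p = 0.157), while IP was lower than IV by -2.83 ± 0.42 (adjusted p = 0.00259). Fcrl1, an Fc receptor-like protein that enhances B cell activation, had the highest log2 fold change of IV over PBS among the 30 genes, 2.54 ± 0.52 (adjusted p = 0.0103).

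Fcrl5, a relative that can inhibit receptor signalling, had 3.13, 2.03 and 2.36 CPM in IP, and 3.64, 9.21 and 5 CPM in IV, against 1.34, 1.73 and 1.71 CPM in PBS. Here IP lay between the other groups in every library, above PBS and below IV, and only IV against PBS was called (1.86 ± 0.35, edgeR adjusted p = 0.00759). Fcrla, a family member kept inside the cell, rose in IV by 1.75 ± 0.40 and was lower in IP than in IV by -2.14 ± 0.41.

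Promoter sequences are shown for 4 genes, Fcer2a and Cr2, whose calls against PBS went in opposite directions after the routes, and Cd22 and Blnk, whose promoters hold a match to a motif bound by B cell factors. They are the 150 bases before the transcription start in RefSeq on GRCm38.p6, an older build than the mm39 named in the submitters' processing notes, and come from chr8:3694175-3694324, chr1:195176720-195176869, chr7:30879029-30879178 and chr19:40994222-40994371 in the order printed, all on the minus strand and written 5′ to 3′. For Fcer2a the reference has 3 starts, of which 1 is shown. Capitals mark an Ebf motif in Cd22 and an octamer in Blnk, and the windows of Fcer2a and Cr2 hold none of the 5 motifs searched. Cd22 and Blnk are examples chosen for their matches, so the contrast with Fcer2a and Cr2 comes from the choice. Vpreb3, Cd37, Cd72 and Fcrl1 also hold a match to a motif of B cell factors and are not shown.
Fcer2a: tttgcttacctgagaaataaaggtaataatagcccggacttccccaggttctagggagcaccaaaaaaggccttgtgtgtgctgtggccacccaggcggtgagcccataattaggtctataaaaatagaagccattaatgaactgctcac
Cr2: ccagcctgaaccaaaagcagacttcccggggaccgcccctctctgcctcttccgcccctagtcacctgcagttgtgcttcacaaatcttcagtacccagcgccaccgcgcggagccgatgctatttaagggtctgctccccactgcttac
Cd22: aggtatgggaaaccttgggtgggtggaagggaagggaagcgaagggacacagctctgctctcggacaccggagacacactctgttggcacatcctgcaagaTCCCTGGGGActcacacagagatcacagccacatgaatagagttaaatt
Blnk: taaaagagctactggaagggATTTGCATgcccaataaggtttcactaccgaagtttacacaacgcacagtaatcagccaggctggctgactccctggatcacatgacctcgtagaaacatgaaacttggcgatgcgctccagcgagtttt

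The motifs were searched on both strands from 250 bases before to 50 bases after the start, in the 25 list genes with a promoter in the RefSeq table and in 27025 genes in all. The octamer ATTTGCAT, at which the member Pou2af1 acts as a coactivator, was found in 2 of the 25 (Blnk and Vpreb3), 8.0%, against 1.97% of all genes. The Ebf motif, TCCC and GGGA with any 2 bases between, was found in Cd22, 4.0% of the 25, against 1.06%. The PU.1 motif GAGGAAGT, of the family that includes Spib, was found in 3 of the 25 (Cd37, Cd72 and Fcrl1), 12%, against 3.69%. The interferon-activated site TTCNNNGAA was found in 2 of the 25 (Bach2 and Bcl11a), 8.0%, against 9.55%, and the NF-kappaB motif, GGG and TTTCC with any 2 bases between, was in 0 of the 25, against 1.89%. These counts are too small for a comparison, and a match describes letters only.

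Among the kinases and adaptors, Btk stood apart. The kinase passes the receptor signal on to phospholipase C, and works in macrophages too. It had 28.1, 24.3 and 26.5 CPM in IP, and 15.5, 34.3 and 21.2 CPM in IV, against 7.10, 5.95 and 9.80 CPM in PBS. Both treated groups were above PBS in every library and overlapped each other. The log2 fold change was 1.78 ± 0.28 for IP over PBS (edgeR adjusted p = 0.000703) and 1.61 ± 0.28 for IV over PBS (adjusted p = 0.00501), and 0.17 ± 0.27 for IP over IV (adjusted p = 0.751).

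Blnk, the adaptor that links the receptor to Btk, had 9.06, 7.16 and 12 CPM in IP, and 12.5, 27.9 and 13.7 CPM in IV, against 4.94, 4.80 and 5.83 CPM in PBS. The groups did not overlap, with IP between the other groups, and IV against PBS was called (1.76 ± 0.31, edgeR adjusted p = 0.00541) while IP against PBS was not (0.86 ± 0.31, adjusted p = 0.0537). Bank1, a scaffold protein of B cells, had 4.68, 2.29 and 3.81 CPM in IP, and 8.99, 26.7 and 17.3 CPM in IV, against 6.42, 5.99 and 7.87 CPM in PBS. Its order was the reverse of that of Blnk between IP and PBS, with IP lowest in every library, and IP was lower than IV by -2.27 ± 0.38 (edgeR adjusted p = 0.00465), while IP against PBS was -0.91 ± 0.37 (adjusted p = 0.0846). Blk, a Src-family kinase of B cells, and Ralgps2, an activator of Ral GTPases, rose in IV by 1.48 ± 0.39 and 1.85 ± 0.45.

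Of the 6 transcription factors, 5 rose in IV and 0 were called in IP against PBS by edgeR, with 1 (Pou2af1) at an unadjusted p under 0.05. DESeq2 called that gene (adjusted p = 0.0299), and limma on the deposited log2 CPM called 0. Pax5, which fixes B cell identity, had 6.65, 4.62 and 6.64 CPM in IP, and 12.4, 34.3 and 14.7 CPM in IV, against 6.58, 6.30 and 8.37 CPM in PBS. IV was above both other groups in every library, by 1.5 ± 0.35 over PBS (edgeR adjusted p = 0.0180), with IP lower than IV by -1.74 ± 0.35 (adjusted p = 0.0118). Spib, an Ets factor of mature B cells, moved alike, 1.51 ± 0.37 for IV over PBS and -1.83 ± 0.38 for IP over IV.

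Pou2af1, a coactivator of immunoglobulin promoters, had 11.3, 9.23 and 15.8 CPM in IP, and 14.2, 42.4 and 19.3 CPM in IV, against 4.89, 5.53 and 7.68 CPM in PBS. All treated libraries were above all PBS libraries, and IP overlapped IV. It was called in IV against PBS (2.04 ± 0.38, edgeR adjusted p = 0.00733) but not in IP against PBS (1.00 ± 0.37, adjusted p = 0.0635). Bcl11a, a factor of early lymphoid cells, and Bach2, which holds back plasma cell formation, were called higher in IV (1.92 ± 0.50 and 1.23 ± 0.37) although IV 1 overlapped PBS in both. These calls were lost in 6 and 12 of 18 alternatives, among them limma on the deposited log2 CPM and the fits without PBS 1, PBS 2 or IV 2 (adjusted p up to 0.101 for Bcl11a and 0.153 for Bach2). Ebf1, which starts the B cell programme and is also made in fat and stromal cells, had 6.32, 5.67 and 5.83 CPM in IP, and 7.46, 17.7 and 9.70 CPM in IV, against 5.87, 4.91 and 8.17 CPM in PBS. IV 1 lay within the PBS range, and no comparison of Ebf1 was called.

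The receptors for homing and survival split as well. Cxcr5, the receptor that draws B cells to Cxcl13, had 5.73, 3.09 and 4.08 CPM in IP, and 8.48, 33.1 and 15.8 CPM in IV, against 4.34, 4.95 and 5.22 CPM in PBS. IV was above both other groups and IP overlapped PBS, with 1.95 ± 0.42 for IV over PBS (edgeR adjusted p = 0.0129) and -2.12 ± 0.43 for IP over IV (adjusted p = 0.0114). Tnfrsf13c, the BAFF receptor that keeps mature B cells alive, gave 1.88 ± 0.50 and -2.36 ± 0.51 in the same comparisons.

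Tnfrsf13b, which encodes TACI, a receptor for both BAFF and APRIL, had 12.3, 10.5 and 11.5 CPM in IP, and 8.40, 22.9 and 15.4 CPM in IV, against 4.26, 3.72 and 7.22 CPM in PBS. Both treated groups were above PBS in every library and overlapped each other. It rose in IP by 1.16 ± 0.34 (edgeR adjusted p = 0.0242) and in IV by 1.59 ± 0.35 (adjusted p = 0.0139). Its call in IP was lost without PBS 1, PBS 2, IP 2 or IP 4, by limma on the deposited log2 CPM and with thinned counts (adjusted p up to 0.0897). Its call in IV was lost without PBS 1, PBS 2 or IV 2 and without IP 4, IV 1 and IV 2 (adjusted p up to 0.0817).

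Cd180, a Toll-like receptor homologue of B cells, macrophages and dendritic cells, was the gene of the list that rose most in IP. It had 69.1, 78.3 and 72.0 CPM in IP, and 40.2, 48.2 and 57.2 CPM in IV, against 7.84, 8.68 and 20.3 CPM in PBS. The 3 groups did not overlap, and IP was the highest, unlike in the other 29 genes, in which IV 2 was the highest of the 9 libraries. The log2 fold change was 2.57 ± 0.32 for IP over PBS (edgeR adjusted p = 0.000181), 1.98 ± 0.32 for IV over PBS (adjusted p = 0.00376) and 0.59 ± 0.31 for IP over IV (adjusted p = 0.262).

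Cd83, an activation marker of B cells and dendritic cells, had 23.8, 17.5 and 17.3 CPM in IP, and 17.5, 45.1 and 21.4 CPM in IV, against 5.52, 14.7 and 10.2 CPM in PBS. Treated and PBS libraries did not overlap, and IV against PBS was called (1.45 ± 0.40, edgeR adjusted p = 0.0326) while IP against PBS was not (0.95 ± 0.39, adjusted p = 0.0874). Cd55, a complement inhibitor on many cell types, was not called in any comparison, with 0.26 ± 0.21 for IV over PBS. Vpreb3, a chaperone-like protein of immunoglobulin chains, had 9 to 30 counts in every library and was not called either, with 1.79 ± 0.63 for IV over PBS (edgeR adjusted p = 0.0801).

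**Figure D2:**
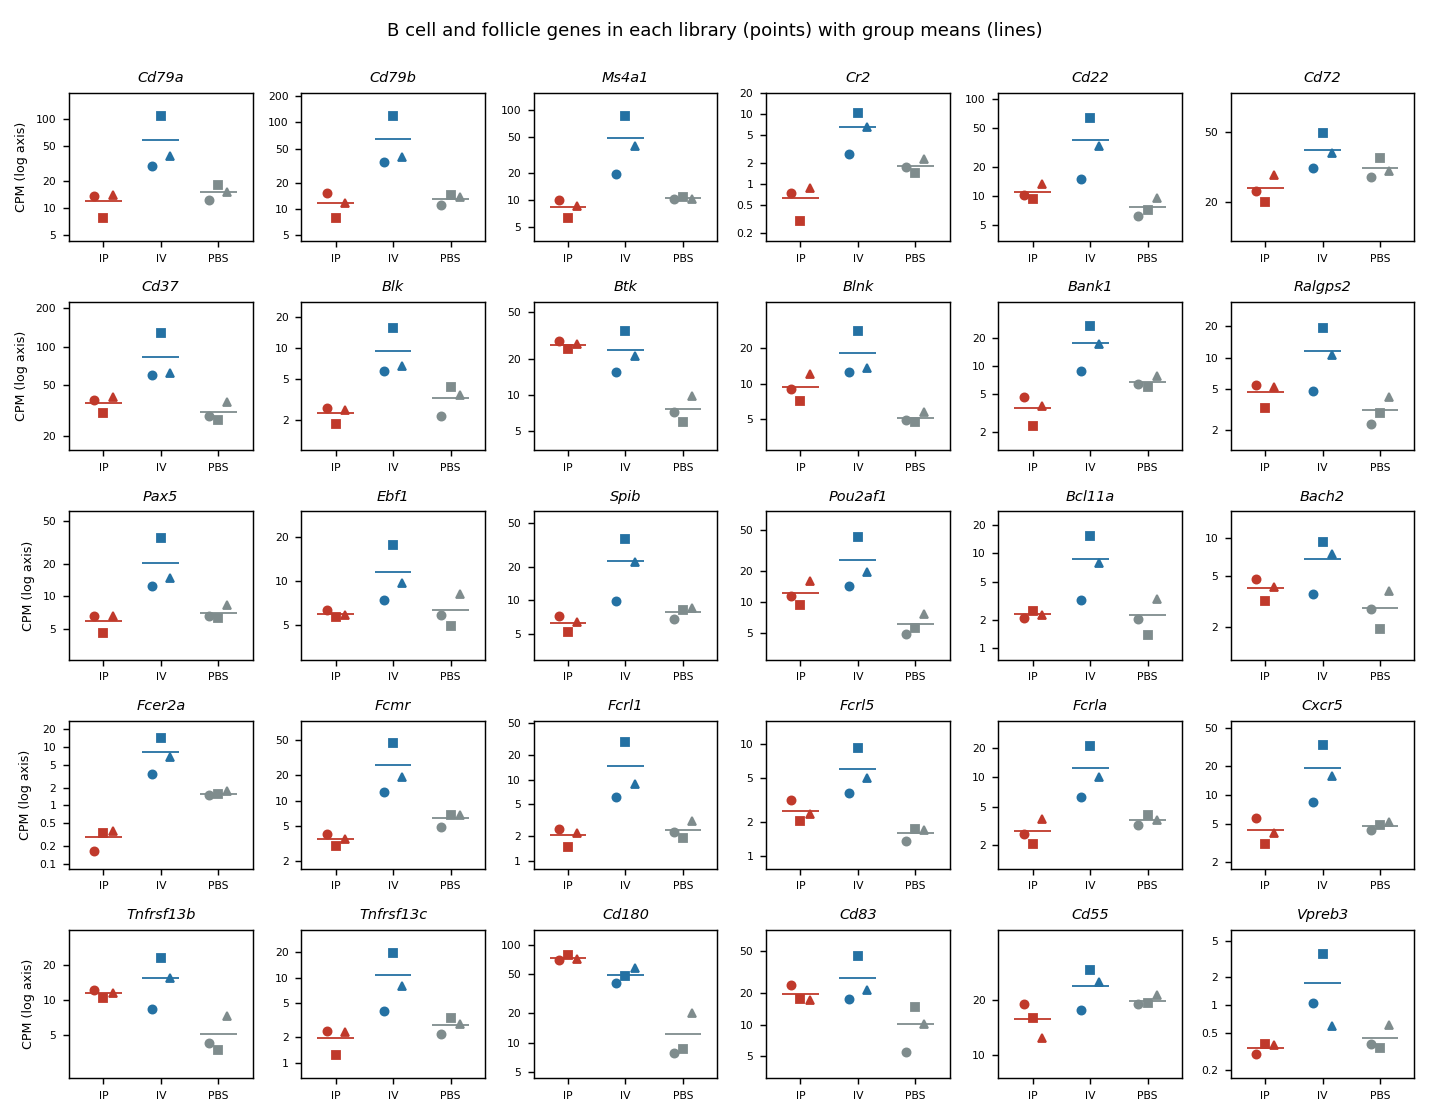
Level of each of the 30 genes in TMM-scaled CPM (log axis, a scale of its own in each panel) in the IP (red), IV (blue) and PBS (grey) libraries. Points are libraries, with the circle, square and triangle in order of mouse number within a group, and lines are group means. IV 2 (the blue square) is the highest library in 29 of the 30 panels, and Cd180 is the exception.

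The IV libraries also varied most among themselves. In 28 of the 30 genes their order was IV 2, IV 4 and IV 1 from the top, with Cd180 and Vpreb3 as exceptions, and in 24 of the 30 genes IP 3 was the lowest IP library. IV 2 is also the shallowest library. Without it, 16 of the 30 genes were called higher in IV than in PBS, with a median log2 fold change of 1.25, beside 5.64% of all genes. Without PBS 1 the number was 12, beside 4.37%, and without PBS 2 it was 16, beside 5.81%. Of 18 alternatives tried, the IV call held in 6 for Bach2, in 8 for Cd83, in 11 for Cr2, Bank1 and Tnfrsf13c, in 12 for Bcl11a and Spib, and in 13 to 17 for the other genes called. Leaving out IP 4, IV 1 and IV 2, which hold the most acinar RNA, keeps IV 4 alone in its group. The median of the list in IV against PBS was then 1.52, and 0 of the 18200 genes tested were called, while the same fit called 319 genes higher and 279 lower in IP against IV, 12 of the 30 among those lower. In IV 4, whose acinar level of 9.43 CPM was below that of the PBS libraries, the 4 B cell genes Cd79a, Cd79b, Ms4a1 and Pax5 summed to 133 CPM, against 40.3 to 49.5 CPM in PBS.

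The summed level of these 4 genes was 45.9, 26.6 and 41.0 CPM in IP, and 96.1, 344 and 133 CPM in IV, against 40.3, 49.5 and 47.4 CPM in PBS. They were then used as a scale: the other 26 genes were expressed per 100 counts of the 4 in the same library, and tested by edgeR with that sum as the offset. On this scale 24 of the 26 were not called between IV and PBS. The standard errors were large, from 0.54 to 0.72, so even Ebf1 was not called (-1.05 ± 0.55, edgeR adjusted p = 0.0745). Ebf1, Spib and Fcrla were uncalled although every IV library was below every PBS library. Fcrl1 went the other way, with 6.47 to 8.4 counts per 100 in IV against 3.88 to 6.47 in PBS. In IV against PBS 0 rose and 2 fell, Cd72 (-1.43 ± 0.55, adjusted p = 0.0166) and Cd55 (-1.52 ± 0.55, adjusted p = 0.0116), beside 0.847% of all genes that rose and 71.9% that fell on the same scale, since the 4 genes were themselves higher in IV.

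Fcer2a was low in IP on that scale too. It had 0.359, 1.27 and 0.904 counts per 100 in IP, and 3.63, 4.07 and 5.02 in IV, against 3.73, 3.10 and 3.64 in PBS. IP was below both other groups in every library, and IV and PBS overlapped. The log2 fold change was -2.11 ± 0.68 for IP over PBS (edgeR adjusted p = 0.0199) and -2.39 ± 0.68 for IP over IV (adjusted p = 0.000954). It was the gene of the 26 that fell in both, beside 1.09% and 0.199% of all genes that fell. The call against PBS was lost without PBS 1, PBS 2, PBS 3, IP 2 or IP 4 (adjusted p up to 0.208), while that against IV held in every alternative (adjusted p up to 0.0166).

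Cr2 had 1.65, 1.11 and 2.14 counts per 100 in IP, and 2.84, 3.06 and 4.97 in IV, against 4.41, 2.95 and 4.76 in PBS. The IP libraries were again the lowest, but neither IP against PBS (-1.28 ± 0.63, edgeR adjusted p = 0.222) nor IP against IV (-1.13 ± 0.62, adjusted p = 0.0781) was called.

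At the other end, Cd180 had 151, 295 and 175 counts per 100 in IP, and 41.9, 14.0 and 42.9 in IV, against 19.5, 17.5 and 42.8 in PBS. Btk had 61.2, 91.2 and 64.5 in IP, and 16.1, 9.95 and 15.9 in IV, against 17.6, 12 and 20.7 in PBS. For both genes IP was the highest in every library while IV and PBS overlapped. They were the 2 of the 26 that rose in IP against PBS on this scale, by 2.96 ± 0.59 (edgeR adjusted p = 1.91e-05) and 2.11 ± 0.56 (adjusted p = 0.00311), beside 10.3% of all genes. The call of Btk was lost without PBS 2 (edgeR adjusted p = 0.0831). In every library IP was also the highest, with IV and PBS overlapping, for Blnk, Pou2af1, Tnfrsf13b, Cd83, Fcrl5, Ralgps2, Bach2 and Cd37. These genes were not called in IP against PBS on this scale. Without IV 2 in the fit, Blnk, Pou2af1, Tnfrsf13b and Cd83 were called higher in that comparison. In IP against IV 10 of the 26 rose, including Cd72, Cd55, Blnk, Ebf1, Pou2af1, Bach2, Tnfrsf13b and Cd83, beside 86.8% of all genes on this scale, so the share in the list is below the background. The remaining 15 were not called, among them Bank1, Fcmr, Fcrl1, Cxcr5 and Tnfrsf13c.

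**Figure D3:**
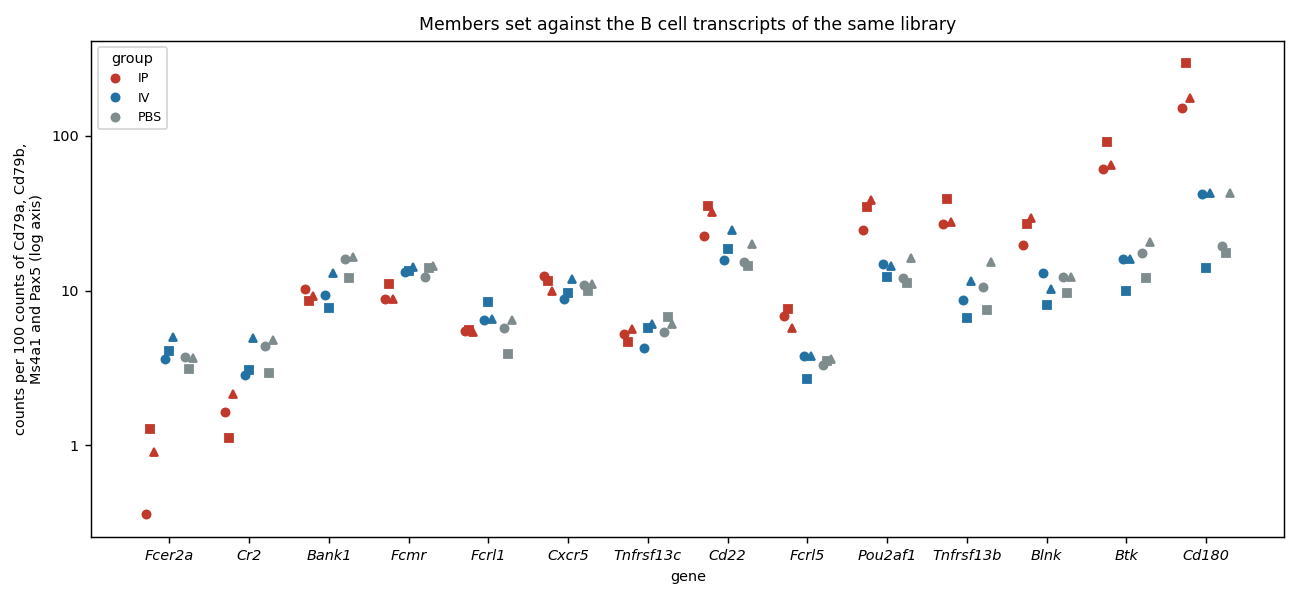
Counts of 14 of the 26 genes per 100 summed counts of Cd79a, Cd79b, Ms4a1 and Pax5 in the same library (log axis), for IP (red), IV (blue) and PBS (grey), with the circle, square and triangle in order of mouse number within a group. On this scale IV and PBS overlap for Fcer2a, Btk and Cd180. IP lies below both for Fcer2a, at 0.359 to 1.27, as for Cr2 and Fcmr. It lies above both for Btk and Cd180, as for Blnk, Pou2af1, Tnfrsf13b and Fcrl5.

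Other genes of the B cell pathways did not all move with the list. Counts of calls here and in the paragraphs below stand beside 18.7% higher and 14.2% lower of all genes tested in IP against PBS. These shares were 10.4% and 5.66% in IV against PBS, and 5.93% and 4.47% in IP against IV. Where a single gene of a list fell in IP against PBS, that was no more than the share of all genes. The 11 immunoglobulin constant genes came closest. In IP against PBS 0 were called by edgeR (4 at an unadjusted p under 0.05, of which 3 higher and 1 lower), in IV against PBS 8 rose, and 5 were lower in IP than in IV (Ighd, Iglc1, Iglc2, Iglc3 and Igha). Iglc2, a lambda light chain gene, had 6.42, 5.25 and 7.52 CPM in IP, and 21.5, 48.6 and 17.6 CPM in IV, against 4.75, 6.99 and 4.02 CPM in PBS, and rose in IV by 2.46 ± 0.37 (edgeR adjusted p = 0.00312). IV was above both other groups in every library. Lambda constant genes are near copies of each other, so reads may have been split among them.

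Of 16 genes that signal below the antigen receptor, 12 rose and 1 fell in IP against PBS, with a median log2 fold change of 1.14. In IV against PBS also 12 rose and 1 fell, with a median of 0.99. The one that fell in both was Rasgrp3, an activator of Ras in B cells, with -1.43 ± 0.23 in IP and -0.87 ± 0.22 in IV. Its level was 62.2, 73.8 and 58.1 CPM in IP, and 71.3, 78 and 135 CPM in IV, against 197, 165 and 160 CPM in PBS. In the same PBS libraries Ms4a1 had only 10.2, 10.8 and 10.2 CPM. The part of B cells, tumour cells or other cells in the level of Rasgrp3 was not tested. Rasgrp3 is named after its values were seen, as are Nr4a1, Ighd and Mertk from other lists. Among the 16 signalling genes, the kinase Lyn rose by 1.57 ± 0.18 in IP (edgeR adjusted p = 0.000124). In IV it rose by 1.28 ± 0.18 (edgeR adjusted p = 0.00268). The inhibitory receptor Fcgr2b rose by 1.68 ± 0.16 in IP and by 0.92 ± 0.16 in IV, and was higher in IP than in IV (0.76 ± 0.16, edgeR adjusted p = 0.0140). Many of these genes, Lyn and Fcgr2b included, are also made in macrophages.

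Of 15 genes that build follicles, 7 rose and 1 fell in IP against PBS, and 8 rose and 0 fell in IV against PBS. The one that fell was Cxcl13, the B cell chemokine of milky spots, with 105, 82.5 and 71.4 CPM in IP, and 329, 246 and 164 CPM in IV, against 223, 211 and 225 CPM in PBS. All IP libraries were below all others, and IV and PBS overlapped. Its log2 fold change was -1.35 ± 0.23 for IP over PBS (edgeR adjusted p = 0.00128) and -1.51 ± 0.23 for IP over IV (adjusted p = 0.00317). Ch25h, which makes an oxysterol precursor that guides B cells, had 46.4, 48.4 and 43.5 CPM in IP, and 8.30, 7.87 and 7.12 CPM in IV, against 0.464, 1.04 and 2.28 CPM in PBS. The groups did not overlap, and it was higher in IP than in IV by 2.57 ± 0.37 (edgeR adjusted p = 0.00236).

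Of 8 genes of BAFF and APRIL signalling that were tested, 6 rose in IP and 4 in IV, and 0 fell. Tnfsf13b, which encodes BAFF, had 5.27, 5.89 and 4.79 CPM in IP, and 4.95, 6.67 and 4.47 CPM in IV, against 0.601, 0.691 and 2.20 CPM in PBS. Both treated groups were above PBS and overlapped each other, with 2.15 ± 0.44 for IP over PBS (edgeR adjusted p = 0.00345) and 2.14 ± 0.44 for IV over PBS (adjusted p = 0.0107).

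Of 15 activation and germinal centre genes, 9 rose and 1 fell in IP (the early response gene Nr4a1, -1.04 ± 0.20), and 8 rose and 0 fell in IV. Cd86, a costimulatory ligand of B cells, macrophages and dendritic cells, had 77.4, 79.0 and 75.7 CPM in IP, and 28.3, 44.6 and 31.8 CPM in IV, against 5.08, 8.41 and 11.7 CPM in PBS. The groups did not overlap, and it was higher in IP than in IV by 1.16 ± 0.26 (edgeR adjusted p = 0.0185). Of 7 plasma cell genes tested, 4 rose and 0 fell in IP, while 4 rose and 1 (Sdc1) fell in IV. Prdm1, the plasma cell regulator that T cells also make, rose by 2.48 ± 0.35 in IP (edgeR adjusted p = 0.000403). Of 8 B-1 and marginal zone genes, 4 rose and 1 fell in IP and 4 rose and 0 fell in IV, and the one that fell in IP was Bhlhe41, a factor of B-1 cells that other cells make too. Bhlhe41 had 237, 255 and 222 CPM in IP, and 390, 255 and 448 CPM in IV, against 427, 482 and 401 CPM in PBS (-0.88 ± 0.19 for IP over PBS, edgeR adjusted p = 0.00545). IP was below PBS in every library, as it was for the melanoma genes Pmel (-0.89 ± 0.14), Dct (-0.88 ± 0.13), Tyr (-1.8 ± 0.18) and Mlana (-0.45 ± 0.21, not called). In IV against PBS, Bhlhe41 (-0.26 ± 0.19), Pmel (-0.25 ± 0.14) and Mlana (0.23 ± 0.21) were not called. Tyr (-0.81 ± 0.17) and Dct (-0.45 ± 0.13) fell there. The part of tumour cells in the level of Bhlhe41 was not tested. None of the 5 early B cell genes tested was called in either comparison with PBS by edgeR, with 1 higher and 1 lower in IP at an unadjusted p under 0.05 and 0 in IV.

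Markers of other cells moved in the same comparisons, and their counts of calls stand beside the same shares of all genes given above. The 10 macrophage and monocyte genes summed to 2690 to 2960 CPM in IP and 2020 to 2890 CPM in IV, against 827 to 1400 CPM in PBS, with 6 higher and 1 (Mertk) lower in IP and 5 higher in IV. The 10 T cell genes summed to 263 to 292 CPM in IP and 153 to 351 CPM in IV, against 61.5 to 136 CPM in PBS, with 7 higher in IP and 8 in IV. The 12 dendritic cell genes summed to 320 to 625 CPM in IP and 231 to 649 CPM in IV, against 206 to 226 CPM in PBS. The tops of the IP and IV ranges come from Klk1, picked out after its values were seen, which had 332 CPM in IP 4, 409 in IV 1 and 85.5 in IV 2, the libraries with the most acinar RNA. Without Klk1 the other 11 genes summed to 293 to 315 CPM in IP and 229 to 257 CPM in IV, against 206 to 225 CPM in PBS. The 4 melanoma genes were at 9200 to 10200 CPM in IP and 12700 to 16700 CPM in IV, against 16800 to 18900 CPM in PBS. Btk, Cd180, Blnk, Pou2af1, Tnfrsf13b, Cd83 and Fcrl5 were all higher in IP than in PBS without overlap. They stand beside these shifts, and the part of macrophages, T cells or dendritic cells in their levels was not tested. The part of acinar RNA was not tested either, and the value of IV 4 given above is that of a single library.

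**Figure D4:**
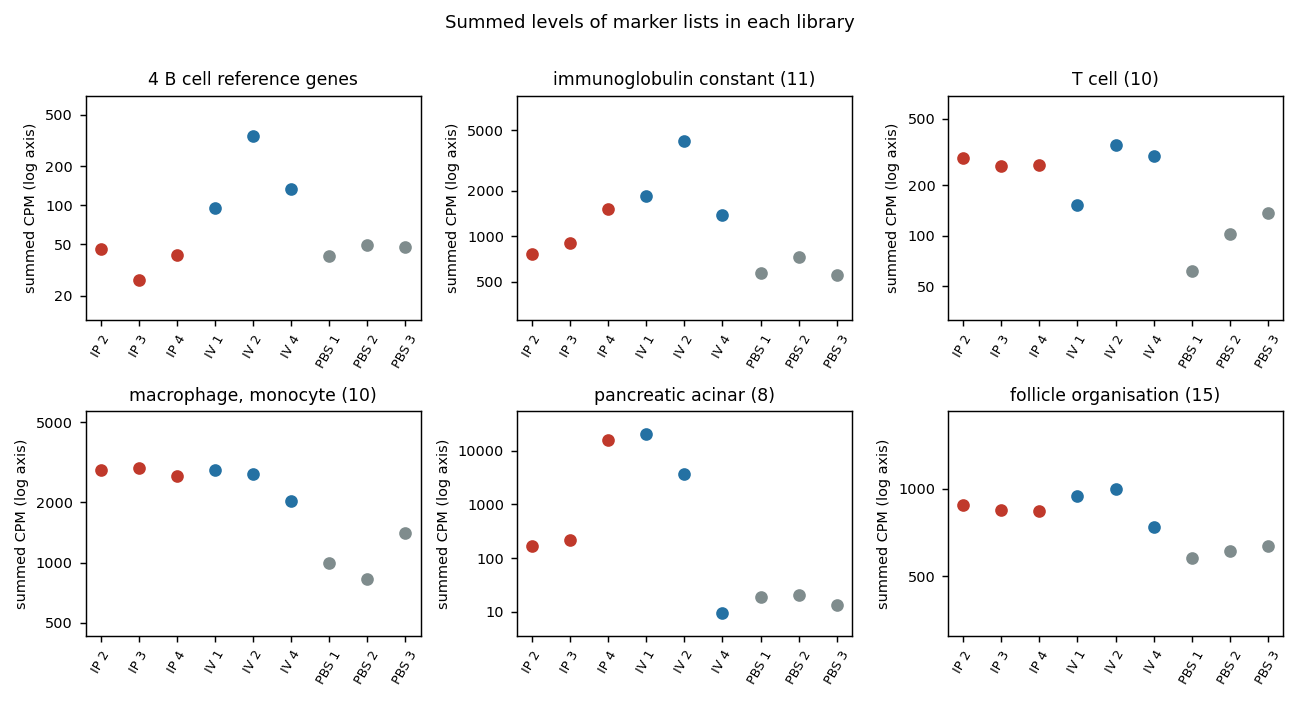
Summed TMM-scaled CPM of 6 gene lists (log axes, a scale of its own in each panel) in each IP (red), IV (blue) and PBS (grey) library. The 4 B cell genes are above PBS in the IV libraries alone, macrophage genes are above PBS in both treated groups, and acinar genes are highest in IP 4, IV 1 and IV 2.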

How the data were processed

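Per the labels' protocols, poly(A) RNA of whole omenta was made into directional libraries and sequenced as read pairs. Named in the submitters' processing notes, without roles, are mm39, limma, featureCounts and STAR 2.7.9. The sources used here give neither the annotation release nor the strand setting. The deposited table holds whole-number counts of 55359 genes, while log2 CPM deposited by the authors for 18833 genes served as an alternative. Symbols were matched for 52083 genes through an older annotation.

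Counts were filtered with filterByExpr, scaled by TMM and fitted in 1 robust quasi-likelihood model of all 9 libraries without covariates in edgeR 4.0.16 (R 4.3.3), two-sided. A standard error is the size of the fold change over the root of its F statistic. A second fit took the summed counts of 4 B cell genes as offset. Scripts were tested on simulated data. Alternatives used limma 3.58.1, DESeq2 1.42.0, other filters, a block and left-out libraries. No 2 libraries of the same group agreed within sampling noise. All 30 genes, and up to 4 genes of each other list by smallest p, could be named. Members and lists were chosen with earlier results of these data known. With 3 mice per group, p-values rest on the spread among those mice.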

Additional observations from a re-analysis of the deposited data

Results flagged for a closer look

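The 18 genes below were marked because the effects of the routes differed, tested by edgeR as IP against IV with an adjusted p under 0.05. Since both effects are taken against the same PBS libraries, this difference is the log2 fold change of IP minus IV. It was -4.74 for Fcer2a and -3.30 for Cr2, the pair lower in IP and higher in IV than in PBS.

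Among surface receptors and their chains it was -2.26 for Cd79a, -2.45 for Cd79b, -2.53 for Ms4a1, -1.75 for Cd22, -0.71 for Cd72 and -1.19 for Cd37. In the Fc receptor family it was -2.83 for Fcmr, -2.77 for Fcrl1 and -2.14 for Fcrla. Among signalling proteins and transcription factors it was -1.98 for Blk, -2.27 for Bank1, -1.74 for Pax5, -1.83 for Spib and -1.91 for Bcl11a. For the receptors of homing and survival it was -2.12 for Cxcr5 and -2.36 for Tnfrsf13c. Of these 18, Bank1, Cr2, Fcer2a, Fcmr, Fcrl1 and Ms4a1 were called in every one of the 18 alternatives tried, while Cd72 was called in 10 and Cd22 and Bcl11a in 12.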

How the results depend on the processing

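Of the 30 genes, the number higher in IP than in PBS was 3, and became 6 with DESeq2, 6 with only the 2 groups compared in the fit, and 2 to 6 with single libraries left out. The number lower was 2, and became 4 with only the 2 groups compared, 4 without IP 4, IV 1 and IV 2, 0 with counts thinned to the total of IV 2, and 1 to 3 with single libraries left out. The number higher in IV than in PBS was 26, and became 17 with only the 2 groups compared, 0 without IP 4, IV 1 and IV 2, and 12 to 27 with single libraries left out. The lone IV 4 was there assumed to vary like the other groups. The number lower in IP than in IV was 18, and 9 (without IP 3) to 23 with single libraries left out. The number higher was 0, and 1 with only the 2 groups compared or without PBS 3. No direction of a called gene turned round in any alternative. Thinning and the fit without 3 libraries were chosen after seeing the data. The cause of these shifts was not tested.

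Relative to the 4 B cell genes, single libraries left out gave 1 to 6 genes higher and 0 to 1 lower in IP against PBS, 1 to 3 lower in IV against PBS, and 5 to 11 higher and 1 to 2 lower in IP against IV, where a geometric mean of 6 genes as the scale gave 2 lower. With the mouse number as a replicate block, the genes lower in IP than in PBS were 4, and those higher in IV than in PBS were 23. The labels do not say whether equal numbers in different groups are related. Same-numbered libraries of different groups had correlations of -0.40 to 0.10 between their deviations from the group means. Differently numbered ones had -0.34 to 0.27, and with 3 mice per group these values cannot decide whether libraries are paired.

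Over all genes tested, calls were 3197 higher and 2429 lower in IP against PBS (2354 to 3713 and 1602 to 3488 over the alternatives), 1784 and 969 in IV against PBS (0 to 2332 and 0 to 2248), and 1015 and 765 in IP against IV (319 to 1709 and 238 to 1251). The share of calls that were higher was 56.8% in IP against PBS, 64.8% in IV against PBS and 57.0% in IP against IV, and with limma on the deposited log2 CPM, which carry no TMM scaling, it was 42.7%, 54.5% and 40.8%. The median log2 fold change of all genes was then -0.14 in IP against PBS and -0.11 in IP against IV, beside -0.39 and -1.76 over the 30 genes. Few counts limit the values of Fcer2a and Cr2 in IP, which rest on 5 to 26 counts per library.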

Other observations

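The ratios below were chosen after values were seen, and are descriptions of single libraries. Follicular B cells carry more IgD than B-1 cells do. Ighd had 1.90, 0.681 and 0.892 counts per 100 counts of Ighm in IP 2, IP 3 and IP 4, and 2.26, 4.63 and 4.28 in IV 1, IV 2 and IV 4, against 2.39, 2.80 and 3.46 in PBS 1, PBS 2 and PBS 3. All IP libraries lay below all others in this ratio. Ighd itself had 7.71, 3.64 and 8.19 CPM in IP, overlapping the 7.7, 9.71 and 11.8 CPM in PBS (edgeR adjusted p = 0.471). The divisor Ighm had 406, 535 and 918 CPM in IP, all above the 322, 347 and 341 CPM in PBS (edgeR adjusted p = 0.114). A low ratio is thus not by itself a loss of Ighd. Fcer2a had 1.64, 5.41 and 4.40 counts per 100 counts of Ms4a1 in IP, and 18.1, 16.4 and 16.7 in IV, against 14.8, 14.2 and 16.9 in PBS. The reverse order held for Fcrl5, with 31.1, 32.4 and 28.0 counts per 100 counts of Ms4a1 in IP, and 18.9, 10.8 and 12.5 in IV, against 13.2, 16 and 16.7 in PBS. Ms4a1 itself was lower in every IP library than in every PBS library, which raises IP ratios built on it. Per 100 counts of Ms4a1, Cd22 was highest in IP (102 to 156, against 74.9 to 82.3 in IV and 60.8 to 93.6 in PBS). Pou2af1 was too (112 to 188, against 48.1 to 73.8 and 48.1 to 75.3). Cr2 was lowest in IP (4.73 to 10.4, against 12.3 to 16.5 and 13.5 to 22.1). For Bank1 IP overlapped IV, and both lay below PBS. On the scale of the 4 B cell genes, Cd22 had 22.4, 35.4 and 32.1 counts per 100 in IP, overlapping the 15.7, 18.6 and 24.7 in IV. There Cd22 was called neither in IP against IV (edgeR adjusted p = 0.28) nor in IP against PBS (edgeR adjusted p = 0.437). The makeup of the B cell populations was not measured.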
